A study of Mus musculus with 2 samples.

Results

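Aldehydes, alcohols, retinol and steroids are oxidised and reduced in the liver by enzyme families that pass hydride to or from NAD and NADP cofactors. The genes described here encode those enzymes, and their transcript levels were compared between mouse hepatocytes sorted as positive and as negative for a phosphomimetic ezrin, Ezrin T567D. Members were all genes with a probe set of their own whose symbol begins with Aldh, Adh, Rdh, Dhrs, Akr or Hsd and a digit, except Hsd3b7 and Akr1d1. The rule found 78 genes with 127 probe sets, of 18193 genes with a single symbol on the array. By family these were 20 Aldh, 7 Adh, 11 Rdh, 9 Dhrs, 14 Akr and 17 Hsd genes.

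Alcohol dehydrogenases (Adh) turn alcohols into aldehydes, and aldehyde dehydrogenases (Aldh) turn aldehydes into acids. In the same way retinol, or vitamin A, is oxidised first to retinaldehyde by retinol dehydrogenases (Rdh, with some Dhrs members working in reverse) and then to retinoic acid by Aldh1a enzymes. Hydroxysteroid dehydrogenases (Hsd) and aldo-keto reductases (Akr) interconvert the hydroxyl and keto forms of steroids and set how active a hormone is within a cell. Hepatocytes express many members of all these families, and several are known to be expressed unevenly between the portal and the central end of the liver lobule.

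Both samples were hepatocytes of male wild-type FVB mice 6 to 8 weeks old, and both came from injected mice, so uninjected hepatocytes and cells given an empty vector are not among them. A hydrodynamic tail vein injection, in which a large volume infused within seconds carries DNA into hepatocytes, delivered 10 µg of a PT3EF5α plasmid encoding EzrinT567D with 0.8 µg of pCMV/SB, which encodes the transposase of the Sleeping Beauty system, in a volume of 2 ml. Ezrin ties the plasma membrane to cortical actin, and the T567D change puts an acidic residue at its regulatory threonine. Collagenase digestion 1 week later gave the cells, which were sorted into GFP+ (EzrinT567D positive) and GFP- (EzrinT567D negative) fractions, with 1 Affymetrix Mouse Genome 430 2.0 array for each. Another label field gives 2 months for both samples, with a fast food diet for the positive and chow for the negative sample, whereas the growth protocol gives chow for both; diet and sort fraction therefore cannot be told apart. Labels do not state how many mice were used or whether RNA was pooled.

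With 1 array per group there is no replicate error and no test between groups. Values are probe set signals on a linear scale from 0.1 to 68451.9 in the positive and from 0.2 to 71329.8 in the negative array, and a gene is given by its brightest probe set. A signal was read as measured above a floor of 334.02 in the positive and 275.2 in the negative array, the 95th percentile of 85 probe sets for odour, pheromone and taste receptors. Ratios are log2 of positive over negative, and a gene is counted at 2-fold, a log2 ratio of 1. The only technical yardstick is the disagreement of probe sets of the same gene: the 2 brightest were compared in 3131 genes, and the SD of the difference in log2 ratio within a gene was 0.41.

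Markers of the labelled cell type were present in both arrays. All 9 hepatocyte markers measured, among them Alb (38679.3 in the positive, 46434.5 in the negative array), exceeded both floors, with log2 ratios from -0.39 to 0.03. The marker at -0.39, Cps1, is also in the list of periportal genes used below. None of the 6 cholangiocyte and 6 leukocyte markers exceeded a floor, and of 3 erythroid markers only Alas2 did, a gene of heme synthesis (733.4 in positive and 689.6 in negative hepatocytes). Of the stellate cell markers 9 of 12 exceeded a floor, with a summed signal of 3954.6 in the positive and 4440.7 in the negative array, of Kupffer cell markers 4 of 10 (2584.6 in the positive, 3331.7 in the negative array), and of sinusoidal endothelial markers 8 of 10 (5304.6 in the positive, 4390.8 in the negative array), and no marker signal was 0. Each summed signal covers all markers of its type, including those below both floors. No marker of these lists differed by 2-fold once its floor was considered. In sorted cells measured in bulk, fewer cells of a type and less RNA per cell cannot be told apart.

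Of the 78 dehydrogenase genes, 54 exceeded the floor in both arrays and 3 only in the negative array, and 21 exceeded neither. Among the 57 above a floor, 2 were at least 2-fold higher in EzrinT567D-positive hepatocytes, Aldh3a2 and Rdh9 (3.51%, against 1.15% of all genes above a floor), and 3 were at least 2-fold lower, Aldh1b1, Hsd17b6 and Hsd17b13 (5.26%, against 0.598%). These are counts of 2 and 3 genes, read without a test. The families as a whole did not lie to either side: 26 of the 54 measured in both arrays were higher and 28 lower (30 and 24 after a loess correction for signal), the median log2 ratio was -0.02 against -0.00073 over 8248 genes, and 47 (87.0%) lay within 0.5 either way, against 86.1% of all genes. The SD of the log2 ratios was 0.59 over the dehydrogenases and 0.36 over all genes, and 2 members lay above 0.5 while 5 lay below -0.5.

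**Figure D1:**
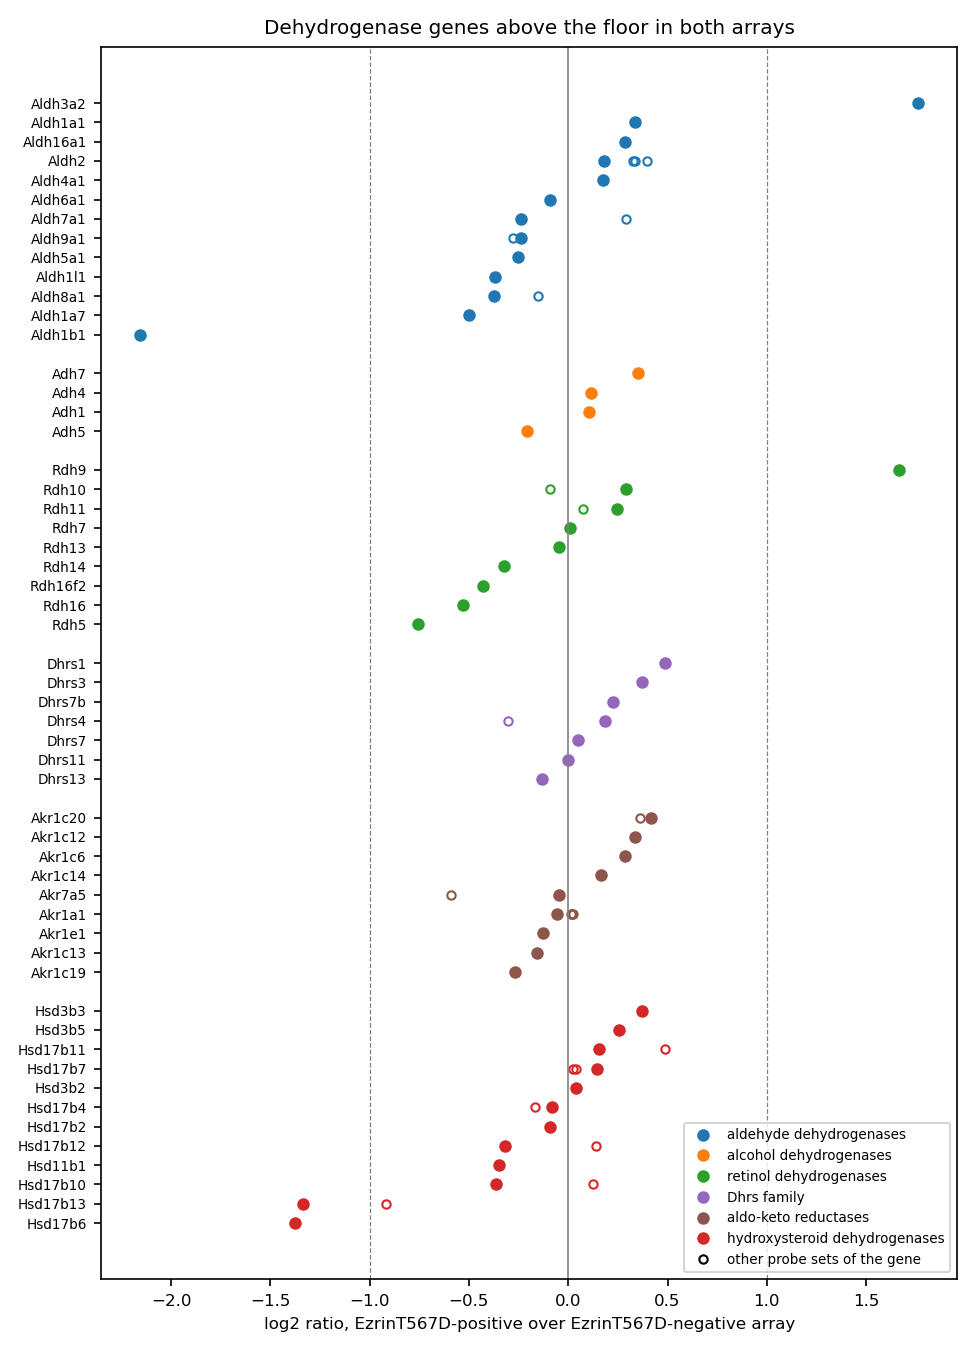
The log2 ratio of EzrinT567D-positive over EzrinT567D-negative hepatocytes (horizontal axis) is plotted for each of the 54 dehydrogenase genes above the floor in both arrays, grouped by family; filled circles are the brightest probe set, open circles the gene's other probe sets above both floors, and dashed lines mark 2-fold. Most genes sit within 0.5 of 0, while Aldh3a2 (1.76) and Rdh9 (1.67) lie to the right and Aldh1b1 (-2.15), Hsd17b6 (-1.38) and Hsd17b13 (-1.33) to the left.

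Aldh3a2, the fatty aldehyde dehydrogenase of the endoplasmic reticulum that oxidises long-chain aldehydes, had the highest ratio of the families. Its single probe set read 2972.2 in positive and 876.6 in negative hepatocytes, 3.39-fold higher, which was rank 4 from the top among the 8248 genes. Its gene lies beside that of Aldh3a1, an enzyme best known from cornea, which read 270.9 in the positive array, below the floor, and 310.7 in the negative array, just above its floor. At that level the neighbour's values give no direction.

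Rdh9, a microsomal short-chain dehydrogenase that acts on cis-retinol and 3α-hydroxysteroids in mouse, followed with 4484.4 in positive and 1413.0 in negative hepatocytes, 3.17-fold higher and rank 7 from the top. This value rests on a probe set whose suffix (_s_at) marks probes that match more than 1 transcript, and Rdh9 has no other probe set. Whether those transcripts belong to 1 gene or to several was not checked, so the signal cannot be assigned to Rdh9 alone.

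Aldh1b1, a mitochondrial enzyme close to Aldh2 that takes acetaldehyde and retinaldehyde, lay at the other end. It read 540.8 in positive and 2408.2 in negative hepatocytes, 4.45-fold lower, and was the lowest of all 8248 genes measured in both arrays. It is represented by a single probe set. Aldh2 itself, the main acetaldehyde-oxidising enzyme of mitochondria, was slightly higher in all 4 of its probe sets above the floors, with ratios from 0.18 to 0.40.

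Hsd17b6, which oxidises androstanediol and also converts retinol, read 2337.6 in positive and 6066.9 in negative hepatocytes (2.60-fold lower, rank 13 from the bottom). Its other probe set read 188.2 in positive and 144.6 in negative hepatocytes, below both floors. Hsd17b13, an enzyme of hepatocyte lipid droplets, was lower in both of its probe sets, with 518.5 in positive and 1307.3 in negative hepatocytes in the brighter (2.52-fold) and 472.3 in positive and 892.1 in negative hepatocytes in the dimmer (1.89-fold). It is the only gene of the 5 whose ratio was seen by a further probe set above the floors.

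**Figure D2:**
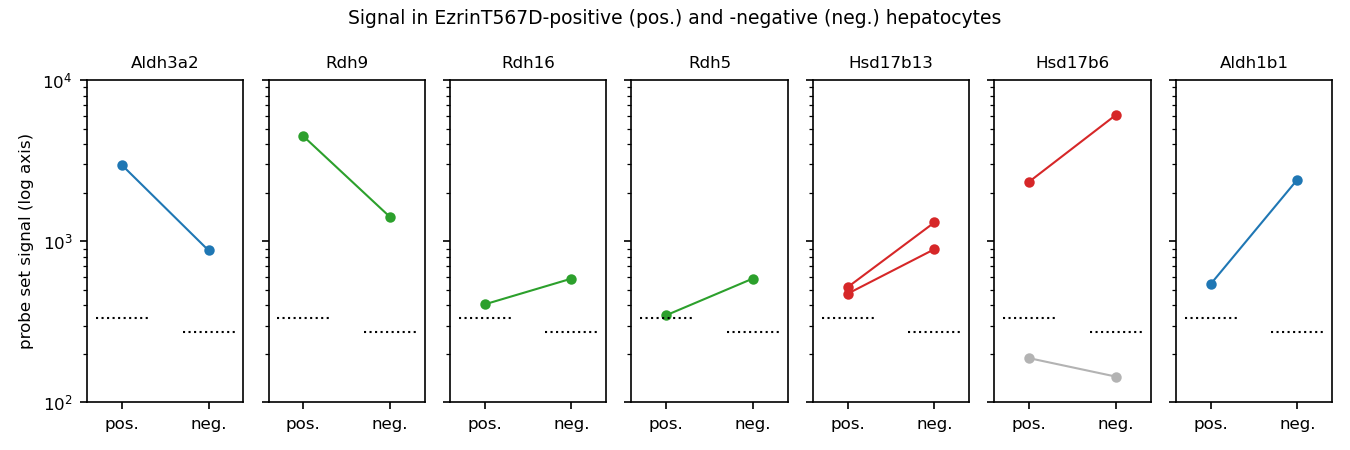
Probe set signals on a log axis in EzrinT567D-positive (left) and EzrinT567D-negative (right) hepatocytes for the 7 dehydrogenase genes with a log2 ratio of 0.5 or more either way; lines join the 2 arrays of a probe set, grey marks a probe set below both floors, and dotted lines give each array's floor. Above the floors, Aldh3a2 and Rdh9 slope down to the right and the other 5 genes slope up, and Rdh5 at 347.3 in the positive array sits close to its floor of 334.02.

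The sequence around the start site of each of these 5 genes is shown because they carry the differences of the families. RefSeq windows on GRCm38.p6 run from 250 bases before to 50 bases after the start, in the direction of transcription: Aldh3a2 at chr11:61267137-61267436 (minus strand), Rdh9 at chr10:127776155-127776454 (plus), Aldh1b1 at chr4:45798772-45799071 (plus), Hsd17b6 at chr10:128007562-128007861 (minus, the upstream of its 2 starts) and Hsd17b13 at chr5:103977339-103977638 (minus). Capitals mark matches on either strand to any of the motifs searched, which were chosen after the values were seen. These were CCAAT as the CCAAT box, TATAAA as the TATA box, GGAATG for TEAD factors, CTTTGAT for TCF and LEF factors, CAAAGTCCA for HNF4A and TGACNNNGC for NRF2.
Aldh3a2: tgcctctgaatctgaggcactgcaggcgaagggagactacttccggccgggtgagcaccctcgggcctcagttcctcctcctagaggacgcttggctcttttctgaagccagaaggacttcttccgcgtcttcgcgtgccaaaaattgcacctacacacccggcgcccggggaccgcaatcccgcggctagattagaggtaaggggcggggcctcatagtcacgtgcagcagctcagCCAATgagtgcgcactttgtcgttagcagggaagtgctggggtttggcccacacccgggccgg
Rdh9: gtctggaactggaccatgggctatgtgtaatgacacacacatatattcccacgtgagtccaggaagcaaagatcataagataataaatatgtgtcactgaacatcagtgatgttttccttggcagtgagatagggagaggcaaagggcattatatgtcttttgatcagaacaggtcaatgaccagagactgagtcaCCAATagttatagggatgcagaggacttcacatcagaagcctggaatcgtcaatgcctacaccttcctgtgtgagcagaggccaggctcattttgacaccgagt
Aldh1b1: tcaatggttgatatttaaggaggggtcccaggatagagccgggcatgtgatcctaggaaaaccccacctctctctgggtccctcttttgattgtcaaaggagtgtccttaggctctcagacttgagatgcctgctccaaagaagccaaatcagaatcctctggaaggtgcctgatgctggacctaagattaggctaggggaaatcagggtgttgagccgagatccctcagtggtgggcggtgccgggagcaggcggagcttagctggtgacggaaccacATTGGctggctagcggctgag
Hsd17b6: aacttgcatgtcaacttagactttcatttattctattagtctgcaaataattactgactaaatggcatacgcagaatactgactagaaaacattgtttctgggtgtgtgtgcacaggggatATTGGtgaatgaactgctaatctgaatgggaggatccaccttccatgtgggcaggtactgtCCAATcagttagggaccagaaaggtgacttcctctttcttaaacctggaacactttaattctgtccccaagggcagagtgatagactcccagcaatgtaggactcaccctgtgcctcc
Hsd17b13: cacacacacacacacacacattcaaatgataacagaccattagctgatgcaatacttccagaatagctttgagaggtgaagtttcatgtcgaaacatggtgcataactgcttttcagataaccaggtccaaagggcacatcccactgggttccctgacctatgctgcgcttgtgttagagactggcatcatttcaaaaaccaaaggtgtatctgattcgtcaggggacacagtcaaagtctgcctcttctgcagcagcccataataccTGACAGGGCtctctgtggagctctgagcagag

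A CCAAT match lay in the windows of Aldh3a2, Rdh9, Aldh1b1 and Hsd17b6, genes higher and lower alike, and TGACNNNGC lay in that of Hsd17b13. CCAAT occurs in 37.4% of 32851 RefSeq windows of this length and in 40 of 70 windows (57.1%) of the 61 members found there. TGACNNNGC occurs in 12.4% of all windows and in 14.3% of the member windows. GGAATG (14.7% of all and 12.9% of member windows), CTTTGAT (3.73% and 1.43%), CAAAGTCCA (0.475% and 2.86%) and TATAAA (13.6% and 12.9%) had no match in the 5 windows printed. The member share of CAAAGTCCA stands for 2 windows. A gene with more than 1 start has more than 1 window, and these can overlap, as those of Hsd17b6 do. A match is a string of letters and no measure of binding, and the search covers these windows alone.

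Genes that mark the 2 ends of the liver lobule differed between the arrays, and their values stand beside those of the 5 dehydrogenases. Of 12 pericentral genes 11 were higher in EzrinT567D-positive cells, with a median log2 ratio of 1.08, among them Glul (19020.7 in positive, 8783.1 in negative hepatocytes) and Cyp1a2 (11096.1 in positive and 5137.7 in negative hepatocytes). Of 12 periportal genes 11 were lower, with a median of -1.07, among them Hal (1248.3 in positive and 4455.1 in negative hepatocytes) and Pigr (6870.6 in positive and 16534.4 in negative hepatocytes). None of the 5 dehydrogenases is in either list, and no zone is given here for any of them. The part of zonation in the differences of the dehydrogenases was not tested.

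Among the other aldehyde-oxidising Aldh genes, ratios were small. Aldh1a1, the cytosolic enzyme that makes retinoic acid, read 16600.1 in positive and 13130.8 in negative hepatocytes (0.34), whereas its neighbour and close relative Aldh1a7 read 2256.3 in positive and 3186.8 in negative hepatocytes (-0.50). The adjacent pair thus differed by 0.84 in log2 ratio. Aldh9a1, which oxidises aminoaldehydes in carnitine synthesis, was lower in both probe sets (-0.24 and -0.28). Aldh3b1, which acts on lipid peroxidation aldehydes, exceeded the floor in the negative array alone, with 293.9 in positive and 391.7 in negative hepatocytes, at least 1.17-fold lower. Aldh1a2, Aldh1a3 and Aldh3b2 exceeded neither floor.

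Aldehyde dehydrogenases of amino acid and folate metabolism were mostly lower by small amounts, 5 of the 6 measured (4 after the loess correction), with a median log2 ratio of -0.25. Aldh8a1, which acts in tryptophan breakdown, read 6211.7 in positive and 8041.7 in negative hepatocytes (-0.37), and the 10-formyltetrahydrofolate dehydrogenase Aldh1l1 read 6674.5 in positive and 8608.8 in negative hepatocytes (-0.37). The succinic semialdehyde dehydrogenase Aldh5a1 had a ratio of -0.26, the valine-pathway enzyme Aldh6a1 -0.09 and the proline-pathway enzyme Aldh4a1 0.17. Aldh7a1, of lysine breakdown, differed in sign between probe sets (-0.24 and 0.29). Aldh18a1 and Aldh1l2 exceeded neither floor, and Aldh16a1, a member without a known catalytic role in mammals, had a ratio of 0.28. Ratios drifted with signal, and the median log2 ratio of the 3580 genes with a mean signal from 1000 to 10000, the range of Aldh6a1, Aldh8a1 and Aldh1l1, was -0.05. After the loess correction for this drift, the ratio of Aldh6a1 was 0.01 and those of Aldh8a1 and Aldh1l1 were -0.28 and -0.27.

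The alcohol dehydrogenases had small ratios in all 4 members measured. Adh1, the main ethanol-oxidising enzyme, read 20609.4 in positive and 19182.6 in negative hepatocytes (0.10), Adh4, which takes larger alcohols and retinol, read 7034.6 in positive and 6504.5 in negative hepatocytes (0.11), and Adh5, which clears formaldehyde bound to glutathione, read 17471.0 in positive and 20156.1 in negative hepatocytes (-0.21). Adh7, known from stomach and also active on retinol, read 751.3 in positive and 589.9 in negative hepatocytes (0.35). All 4 lay within the probe set disagreement of 0.41. Adh6a, Adh6b and the pseudogene Adh6-ps1 exceeded neither floor.

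**Figure D3:**
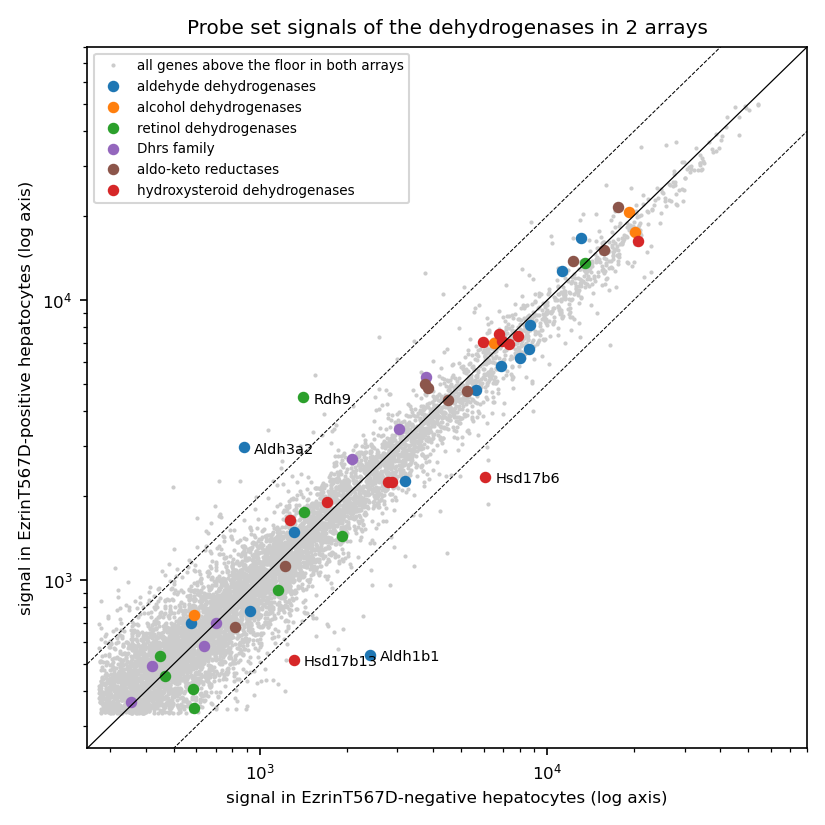
Signal in EzrinT567D-positive hepatocytes (vertical log axis) against signal in EzrinT567D-negative hepatocytes (horizontal log axis), for the 54 dehydrogenase genes coloured by family over all 8248 genes above the floor in both arrays in grey; the solid line is equality and dashed lines are 2-fold. The alcohol dehydrogenases and aldo-keto reductases follow the solid line, and 5 named genes lie outside the dashed lines.

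Of 9 retinol dehydrogenases measured, 3 lay past 0.5, Rdh9 and, nearer the floor, Rdh5 and Rdh16. Rdh5, which oxidises 11-cis-retinol and is best known from the retinal pigment epithelium, read 347.3 in positive and 586.8 in negative hepatocytes, 1.69-fold lower, with its positive signal close to the floor. Rdh16, a microsomal enzyme for retinol and 3α-hydroxysteroids, read 405.8 in positive and 586.1 in negative hepatocytes (1.44-fold lower). With the floor at the 99th percentile of the receptor probe sets (425.5 in the positive array) both positive signals lay below it, and the log2 ratios of Rdh5 and Rdh16 became bounds of -0.46 each. Rdh10, the enzyme that supplies retinaldehyde in the embryo, differed in sign between its probe sets (0.29 and -0.09). Rdh11 (0.25 and 0.07), Rdh13 (-0.04) and Rdh14 (-0.32), which favour the reduction of retinaldehyde, lay close to 0, and Rdh1 and Rdh12 exceeded neither floor.

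Rdh9, Rdh16, Rdh16f2, Rdh7 and Hsd17b6 belong to a single run of related genes in RefSeq, and the run held both a ratio among the highest and a ratio among the lowest of the families. In RefSeq order, and leaving out Rdh19 between Rdh16 and Rdh16f2, for which no signal was used here, Rdh1 was below the floors, Rdh9 had a log2 ratio of 1.67, Rdh16 -0.53, Rdh16f2 -0.43 (1435.3 in positive, 1932.9 in negative hepatocytes), Rdh7 0.01 (13537.1 in positive and 13460.0 in negative hepatocytes), the non-member Sdr9c7 -0.19 and Hsd17b6 -1.38. The adjacent genes Rdh9 and Rdh16 differed by 2.20 in log2 ratio. Since the Rdh9 probe set is of the shared kind, transcripts of more than 1 gene of the run may be counted in it. In another pair of neighbours, Hsd17b13 was lower (-1.33) while Hsd17b11, a lipid droplet enzyme as well, had ratios of 0.15 and 0.49.

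**Figure D4:**
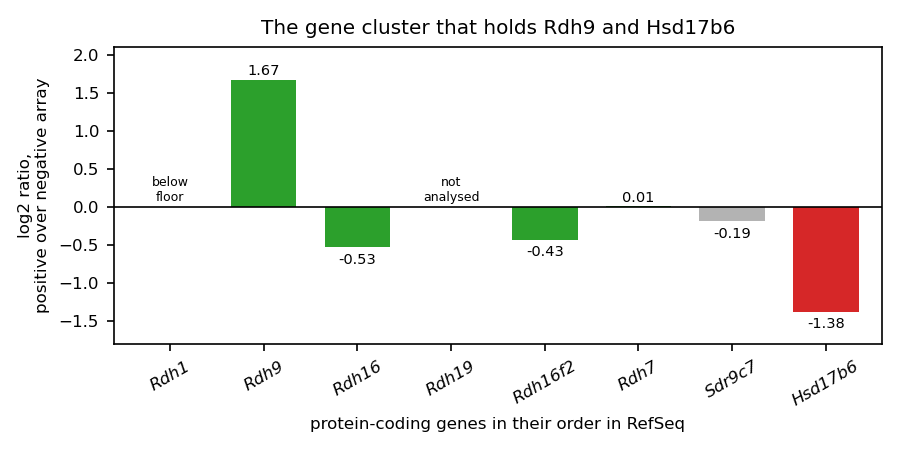
Bars give the log2 ratio of EzrinT567D-positive over EzrinT567D-negative hepatocytes for the protein-coding genes between Rdh1 and Hsd17b6, in RefSeq order and without scale; green marks retinol dehydrogenases, red Hsd17b6 and grey the non-member Sdr9c7; Rdh1 (below the floors) and Rdh19 (not analysed here) have no bar. The bar of Rdh9 (1.67) points up and that of Hsd17b6 (-1.38) down, with Rdh7 at 0.01 between them.

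The Dhrs genes, further short-chain dehydrogenases, were within 0.5 in all 7 members measured, with a median of 0.18. Dhrs1 read 5300.8 in positive and 3778.4 in negative hepatocytes (0.49), and Dhrs3, a retinaldehyde reductase that returns retinaldehyde to retinol, read 2710.4 in positive and 2095.4 in negative hepatocytes (0.37). Dhrs4, a peroxisomal carbonyl and retinaldehyde reductase, differed in sign between probe sets (0.18 and -0.30). Dhrs7b, Dhrs7, Dhrs11 and Dhrs13 ran from 0.23 down to -0.13, and Dhrs2 and Dhrs7c exceeded neither floor.

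The aldo-keto reductases lay within 0.5 in all 9 members measured. Akr1c6, a 17β-hydroxysteroid dehydrogenase of mouse liver, read 21402.3 in positive and 17561.4 in negative hepatocytes (0.29), Akr1c20 was higher in both probe sets (0.42 and 0.36), and Akr1c12 (0.34) and Akr1c14, a 3α-hydroxysteroid dehydrogenase (0.16), were higher too. Akr1c13 (-0.16) and Akr1c19 (-0.27) were lower. Uncorrected, the 4 higher genes all stayed under the probe set disagreement of 0.41 except Akr1c20, at 0.42 in its brighter probe set. After the loess correction Akr1c6 and Akr1c12 came level with that disagreement at 0.41 each, and Akr1c20 had 0.49. Quantile normalization gave 0.37 for Akr1c6, 0.42 for Akr1c12 and 0.50 for Akr1c20. Akr1c21 exceeded the floor in the negative array alone, with 313.7 in positive and 359.9 in negative hepatocytes. Akr1a1, the aldehyde reductase of glucuronate and vitamin C synthesis in mouse, had 4 probe sets between -0.06 and 0.02, and Akr1e1 had a ratio of -0.13. Akr7a5, which reduces succinic semialdehyde and toxin aldehydes, read 4381.4 in positive and 4519.7 in negative hepatocytes in its brightest probe set (-0.04), of the shared kind, and 1316.4 in positive and 1984.7 in negative hepatocytes in the other (-0.59). Akr1b8, Akr1b10, Akr1c18 and Akr1cl exceeded neither floor.

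Among the hydroxysteroid dehydrogenases, Hsd11b1, which regenerates active glucocorticoid, read 16244.4 in positive and 20688.3 in negative hepatocytes (-0.35), and Hsd11b2, which inactivates it in kidney, exceeded neither floor. The 3β-hydroxysteroid enzymes were all slightly higher, Hsd3b3 at 0.37, the male-biased liver form Hsd3b5 at 0.25 (7093.1 in positive and 5951.1 in negative hepatocytes) and Hsd3b2 at 0.04. Their sequences are close, and a probe set may read more than 1 of them. Of the 8 Hsd17b genes measured 6 were lower (4 after the loess correction), but apart from Hsd17b6 and Hsd17b13 the ratios were small: Hsd17b2 -0.09, the peroxisomal multifunctional enzyme Hsd17b4 -0.08 and -0.17, and the cholesterol synthesis enzyme Hsd17b7 between 0.02 and 0.15 in 3 probe sets. The fatty acid elongation enzyme Hsd17b12 (-0.32 and 0.14) and the mitochondrial enzyme Hsd17b10 (-0.37 and 0.12) differed in sign between probe sets. Hsd17b1, Hsd17b3, Hsd17b14 and Hsd3b1 exceeded neither floor.

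Of the 16 members with more than 1 probe set above both floors, 10 had the same sign throughout and 6 did not (Akr1a1, Aldh7a1, Dhrs4, Hsd17b10, Hsd17b12 and Rdh10), each with ratios within 0.5. The 21 members below both floors reached at most 262.9 in the positive and 224.3 in the negative array, and no ratio is given for them.

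Genes that work with these enzymes were read from lists by role. Of 17 retinoid handling genes measured in both arrays, 7 were higher and 10 were lower (median -0.07), and 1 was at least 2-fold higher, the retinoic acid hydroxylating cytochrome P450 Cyp2c39 (2151.1 in positive, 498.3 in negative hepatocytes, 2.11). Retsat, which saturates retinol, had a ratio of -0.72, the retinoic acid hydroxylase Cyp26a1 0.37, the retinol esterifying enzyme Lrat 0.39 and the plasma carrier Rbp4 -0.06. Lrat is also in the stellate cell marker list, and its signals were low, 473.5 in the positive and 362.1 in the negative array. Cyp26b1 and Bco1 of the retinoid list exceeded the floor in the positive array alone. Cyp26b1 read 438.8 in positive and 184.2 in negative hepatocytes, at least 1.59-fold higher. Bco1 read 388.2 in positive and 243.1 in negative hepatocytes, at least 1.41-fold higher. Of 5 genes of ethanol and acetate use, Cyp2e1 (0.47) and Aox1 (0.38) were higher and Acss2 (-0.55), Aox3 (-0.57) and Cat (-0.11) lower. Of 11 steroid conversion genes, 6 were higher and 5 were lower (median 0.00), and of 8 genes that remove lipid peroxidation aldehydes 2 were higher and 6 lower (-0.15); none of these 3 lists held a gene at 2-fold. In the steroid list Cyp2b10 was above the floor in the negative array alone, with 124.9 in positive and 446.2 in negative hepatocytes, at least 1.34-fold lower.

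**Figure D5:**
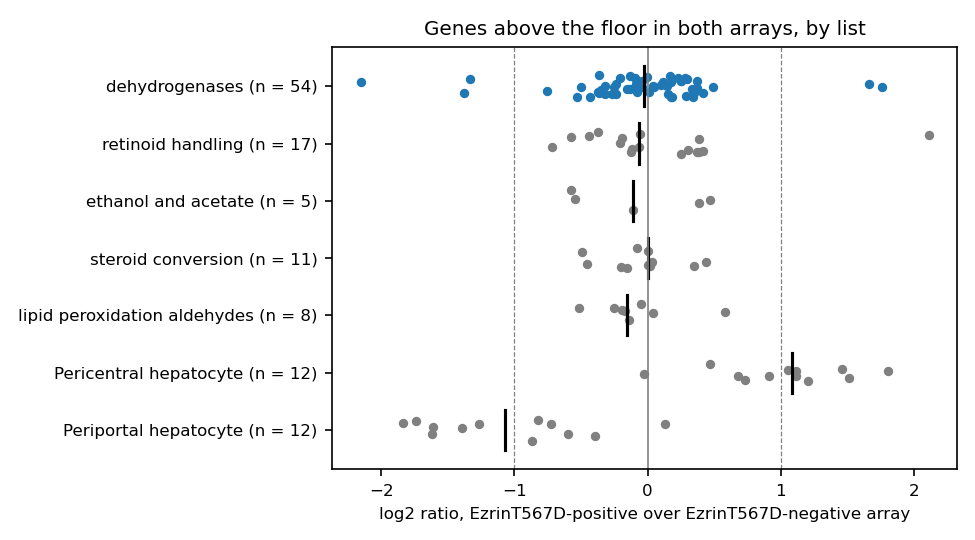
Points are log2 ratios of EzrinT567D-positive over EzrinT567D-negative hepatocytes for genes above the floor in both arrays, black bars are medians and dashed lines 2-fold. The dehydrogenases (median -0.02) and the 4 lists of their metabolic partners centre near 0, whereas the pericentral genes centre at 1.08 and the periportal genes at -1.07. Some genes appear in more than 1 list: Cyp2e1 is in the ethanol and pericentral lists, and Aox1 and Aox3 are in the retinoid and ethanol lists.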

How the data were processed

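Each deposited value is the intensity of a probe set on a linear scale, made with MAS5 per the submitters' processing notes, with its version, detection calls and settings not given in the sources used here. The 2% trimmed mean of the deposited intensity was 500.0 in both arrays, so a shift of the whole transcriptome cannot be seen. Of 45101 probe sets 34945 carried 1 gene symbol, 932 several (7 of them with a symbol of these families) and 9160 none; 64 were controls. Only those with 1 symbol were used, and all 78 members were matched by Entrez ID to RefSeq with 0 changed symbols.

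From these values, the brightest probe set (mean of both arrays) stood for each gene, ratios were computed with Python 3.11.15 and pandas 2.3.3, and a member above the floor in 1 array was given a bound with its dim signal raised to that array's floor. A bound pointing away from the measured side, as for Aldh3a1, carries no direction. A loess correction used lowess with a span of 0.3 (statsmodels 0.14.6). Simulated data were used to check the counting step alone, which says nothing about the difference between the groups. The members, the gene lists and the genes described (all members, in full from a log2 ratio of 0.5 or for their role) were chosen with earlier results of these data known. Hepatocyte, cell type and lobule marker lists were used as descriptions. The number of arrays limits the precision.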

Additional observations from a re-analysis of the deposited data

How the results depend on the processing

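Aldh3a2 at least 2-fold higher and Aldh1b1, Hsd17b6 and Hsd17b13 at least 2-fold lower were found under all 10 alternatives (other floors, no floor, the mean over probe sets, no shared probe sets, quantile and loess normalization, other treatment of bounds, genes above both floors only). Rdh9 was found under 9 of them: with probe sets of the shared kind removed it has none, which left 1 member higher. That setting dropped every probe set with the suffix _s_at, _x_at or _a_at by suffix alone, whether or not its probes match another gene. It left 49 of the 57 members above a floor. For Aldh3a2, Rdh9, Aldh1b1 and Hsd17b6, each with 1 probe set above both floors, only the quantile and loess settings gave another ratio. These were 1.77 and 1.78 for Aldh3a2, 1.72 and 1.71 for Rdh9, -2.18 and -2.17 for Aldh1b1, and -1.31 in both for Hsd17b6. Where another setting kept the main value, it mostly did so by construction and is no further support. Without a floor 8 members were at least 2-fold higher and 6 lower, the additional ones all below both floors. The median log2 ratio of the members ran from -0.04 to 0.05. Of the single members, Akr7a5 (-0.59) and Hsd17b10 (0.12) moved by more than 0.41 without shared probe sets. No gene counted at 2-fold in the main setting changed sign. Members with smaller ratios did change sign between settings, among them Hsd17b10, Akr1a1, Akr7a5, Aldh7a1, Dhrs4 and Rdh10. No paired analysis was possible because each group holds 1 array, and no array could be left out. Signals near the floor, as for Rdh5 and Rdh16, limit what their ratios can show.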
